A study of Mus musculus with 9 samples.

Results

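The cells described here are green fluorescent interneurons of the SOM-Cre;Ai47 mouse line at postnatal day 5, and the 3 SOM libraries were set against the 6 libraries of the other lines of the series, 9 in all. Of these 6, 3 came from VIP-Cre;Ai47 mice and 3 from the inducible line Nkx2.1-CreER;Ai47, in which tamoxifen was given at embryonic day 17, and each line had equal weight. The members are the SOM count tables as named by their line. All lines carried the Cre-dependent reporter Ai47, and in each a library was made from total RNA of 150 fluorescent cells picked by hand from layer 2/3 strips of medial prefrontal and anterior cingulate cortex. The SOM-Cre driver follows the somatostatin gene and VIP-Cre the gene of vasoactive intestinal peptide, so a difference in Sst or Vip between the lines restates how the cells were labelled. The late tamoxifen scheme in Nkx2.1-CreER mice is used to label chandelier cells. Only the Nkx2.1 line had tamoxifen, and the labels name no animals. The libraries of a line may thus be technical repeats, and p-values rest on the spread between these samples alone.

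Somatostatin interneurons arise in the medial ganglionic eminence (MGE), as do chandelier cells and parvalbumin basket cells, whereas VIP interneurons arise in the caudal ganglionic eminence (CGE). In the mature cortex many somatostatin cells are Martinotti cells, whose axons reach layer 1 and contact the distal dendrites of pyramidal neurons, and a smaller class with long-range axons makes nitric oxide synthase, neuropeptide Y and chondrolectin. In the first postnatal days these cells still grow axons and form transient circuits.

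The libraries held 6484488 to 12465997 reads in genes over 23319 gene symbols, and 8995 symbols had no read in any library. Levels are given as CPM, reads per 1000000 reads in genes after TMM scaling, and a floor of 3 reads came to 0.248 to 0.447 CPM. Genes that mark GABAergic neurons summed to 3508 to 3959 CPM in SOM, 3240 to 5818 CPM in Nkx2.1 and 5219 to 7064 CPM in VIP libraries. Markers of excitatory neurons summed to 3.73 to 35.7 CPM in SOM, 0 to 147 CPM in Nkx2.1 and 55.8 to 169 CPM in VIP libraries. In the SOM libraries, markers of microglia summed to 0 to 18 CPM and of endothelial and mural cells to 0 to 17.7 CPM. Markers of the oligodendrocyte lineage summed to 101 to 266 CPM in SOM, 261 to 304 CPM in Nkx2.1 and 1.73 to 112 CPM in VIP libraries, and Gad1, which makes GABA, stood at 1189 ± 164, 1263 ± 545 and 1478 ± 496 CPM (mean ± SD, n = 3). Astrocyte markers summed to 64.4 to 212 CPM in the SOM libraries, 264 to 415 CPM in the VIP libraries and 3590.0, 668 and 255 CPM in Nkx2.1 replicates 1, 2 and 3, with Gfap and Gja1 at 0 reads in all SOM libraries. Nkx2.1 replicate 1 also held some reads of genes that were otherwise found mainly in the SOM libraries, and its values are given beside those results. The part of astrocyte or excitatory neuron RNA in the lower genes was not tested. The correlation of log2(CPM + 1) across genes, which are not independent replicates, was 0.668 to 0.715 between SOM libraries and 0.469 to 0.576 between a SOM library and one of another line.

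SOM cells stood apart from the other lines by high transcript levels of the neuropeptide genes Sst and Npy and the growth cone gene Gap43, and by low levels of the transcription factor genes Nfib and Tcf4. Against the mean of the other lines, the quasi-likelihood test of edgeR called 6 of 10728 tested genes higher (0.0559%) and 2 lower (0.0186%) at an adjusted p under 0.05. The 3 remaining higher calls, Nxph1, Lhx6 and Cntnap3, were genes at 0 or near 0 in VIP cells whose mean levels in Nkx2.1 cells were above those in SOM cells. When a gene had to be called against each other line separately, 1 gene was higher in SOM (Gap43, 0.00932% of those tested) and 2 were lower (Nfib and Tcf4, 0.0186%). Both of these pairwise comparisons use the same SOM libraries. In such bulk libraries, fewer cells with a transcript and less of it per cell cannot be told apart. At an unadjusted p under 0.05 there were 725 higher genes (6.76%) and 199 lower ones (1.85%), and in 370 genes (3.45%) all SOM libraries lay above all 6 others and in 85 (0.792%) below them. Other tools gave more calls: 257 higher and 118 lower with the Wald test of DESeq2, and 159 and 5 with limma-voom. In edgeR, leaving out Nkx2.1 replicate 1 gave 22 higher calls, and leaving out SOM replicate 2 gave 2 higher and 0 lower ones.

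**Figure D1:**
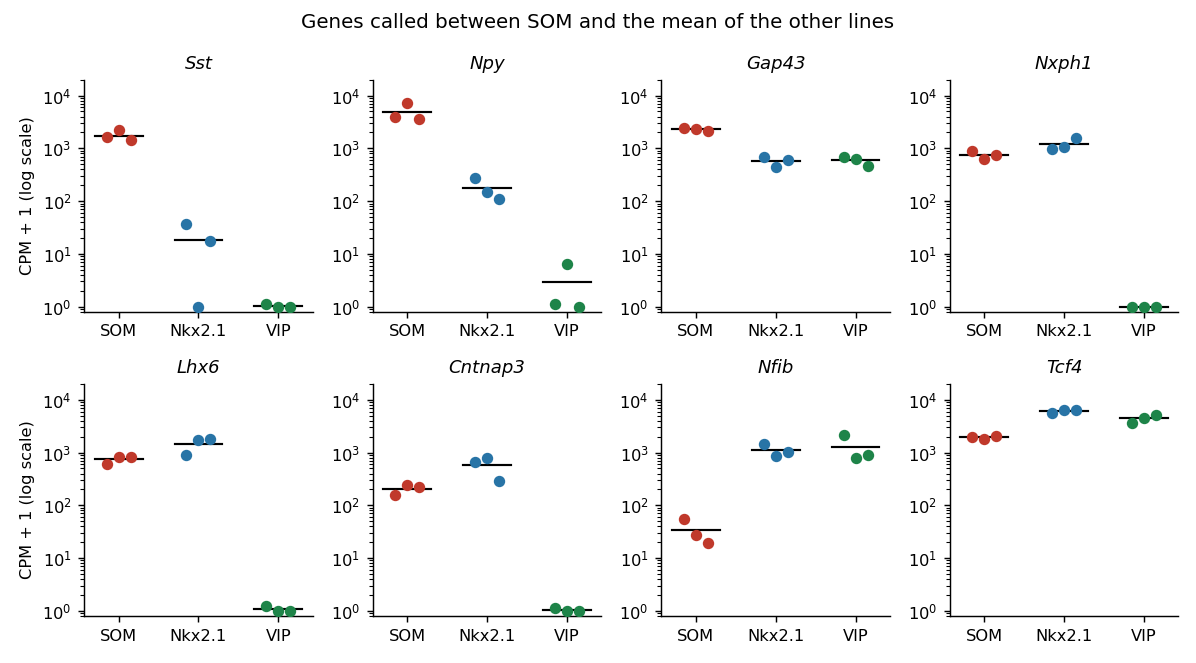
Levels of the 8 called genes by line, as CPM + 1 on a log axis, with 1 point per library and a line at the mean of 3 libraries. Sst, Npy and Gap43 are highest and Nfib and Tcf4 lowest in the 3 SOM libraries, while Nxph1, Lhx6 and Cntnap3 are at 0 or near 0 in VIP libraries only.

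Somatostatin and neuropeptide Y are inhibitory peptides released by these interneurons. The 250 bases before the RefSeq start of both genes are shown because the somatostatin promoter is a classic site of the cAMP response element (CRE), with letters from RefSeq (build GRCm38) on the gene's strand and the element TGACGTCA in capitals.
Sst, chr16:23890845-23891094, minus strand: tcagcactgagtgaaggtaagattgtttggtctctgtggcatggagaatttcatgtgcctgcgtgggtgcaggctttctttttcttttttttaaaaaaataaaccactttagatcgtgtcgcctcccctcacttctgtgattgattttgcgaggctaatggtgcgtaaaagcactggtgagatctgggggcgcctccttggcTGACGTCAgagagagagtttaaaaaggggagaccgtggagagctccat
Npy, chr6:49822460-49822709, plus strand: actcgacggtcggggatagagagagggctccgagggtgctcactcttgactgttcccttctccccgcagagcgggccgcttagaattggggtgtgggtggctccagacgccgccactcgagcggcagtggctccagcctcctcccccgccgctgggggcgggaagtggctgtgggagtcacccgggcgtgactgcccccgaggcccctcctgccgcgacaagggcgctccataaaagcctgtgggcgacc
The element reads the same on both strands, and in Sst it lies 48 to 41 bases before the RefSeq start. That start lies inside the wider Sst span given below, which comes from the GENCODE annotation. It was found in 588 of the 32851 RefSeq promoter windows of 300 bases (1.79%), and in no window of Npy. Among the genes named here, it was in 1 of 18 windows of higher genes (Sst; 13 of 15 genes matched) and 0 of 15 windows of lower genes (11 of 15 genes matched).

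Sst (GRCm38 chromosome 16, 23889573 to 23890958, minus strand) stood at 1606, 2179.6 and 1456 CPM in SOM replicates 1, 2 and 3, at 36.4, 0 and 16.7 CPM in Nkx2.1 replicates 1, 2 and 3 and at 0.124, 0 and 0 CPM in the VIP libraries. All SOM libraries were thus far above the rest, and the highest other library was Nkx2.1 replicate 1. The mean level was 98.8-fold that of Nkx2.1 cells, and the ratio of pooled reads to VIP cells, which had 1 read, was 50929 (95% counting interval 9140.2 to 2011630.0). Against the mean of both lines the fitted log2 fold was 10.89 ± 1.43 (SE; edgeR adjusted p = 0.0243). Against the lines singly the call was missed (edgeR adjusted p = 0.288 for Nkx2.1 and 0.0534 for VIP).

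Npy (chromosome 6, 49822710 to 49829507, plus strand) had the highest level of the called genes in SOM cells. It stood at 3969.8, 7200.1 and 3583 CPM in SOM, 276, 145 and 108 CPM in Nkx2.1 and 0.124, 5.52 and 0 CPM in VIP libraries, with SOM replicate 2 highest and no overlap. The mean in SOM cells was 27.9-fold that of Nkx2.1 cells and 2616-fold that of VIP cells (log2 8.07 ± 1.13 against the mean; edgeR adjusted p = 0.0368). When each library was left out in turn, the calls of Sst and Npy each held in 2 of 9 fits, with adjusted p up to 0.154 and 0.148, and both were lost with the sample number as a block and with the 6 other libraries as 1 group (edgeR adjusted p = 0.432 and 0.562). The log2 fold was at least 7.62 for Sst and 5.78 for Npy under every alternative tried.

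Gap43 (chromosome 16, 42248442 to 42340651, minus strand) encodes a membrane protein of growth cones and presynaptic terminals. Its level was even among the SOM libraries, at 2464, 2354 and 2114 CPM, against 699, 440.2 and 607 CPM in Nkx2.1 and 692, 621 and 465 CPM in VIP libraries. Every SOM library was above every other library, and the lowest of them, at 2114 CPM, was far from the highest of the others, at 699 CPM. Gap43 rose 3.97-fold over Nkx2.1 cells (log2 1.99 ± 0.27, edgeR adjusted p = 0.036) and 3.9-fold over VIP cells (log2 1.96 ± 0.27, edgeR adjusted p = 0.04). Against the mean of both, the edgeR adjusted p was 0.00745, and with each library left out in turn it passed in 7 of 9 fits, all but those without SOM replicate 1 or 2.

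Nfib (chromosome 4, 82290173 to 82705750, minus strand), a nuclear factor I transcription factor that acts in glial and late neuronal differentiation, had the lowest SOM levels relative to both lines among the called genes. It stood at 53.5, 25.8 and 18.1 CPM in SOM, 1461, 847 and 1021 CPM in Nkx2.1 and 2165, 795 and 905 CPM in VIP libraries. The highest SOM library, at 53.5 CPM, was far below the lowest of the others, at 795 CPM. Nfib was 34.2-fold lower than in Nkx2.1 cells (log2 -5.09 ± 0.59, edgeR adjusted p = 0.0144) and 39.7-fold lower than in VIP cells (log2 -5.31 ± 0.60, edgeR adjusted p = 0.0108). Against the mean its edgeR adjusted p was 0.00745, and that of limma-voom was 0.29.

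Tcf4 (chromosome 18, 69343356 to 69689079, plus strand), an E protein that pairs with proneural basic helix-loop-helix factors, was abundant in all lines and lowest in SOM cells. Its levels were 1969, 1789 and 2093 CPM in SOM, 5590.0, 6466 and 6365 CPM in Nkx2.1 and 3659, 4595 and 5243 CPM in VIP libraries, without overlap. Tcf4 fell 3.15-fold below Nkx2.1 (log2 -1.65 ± 0.16, edgeR adjusted p = 0.0133) and 2.31-fold below VIP cells (log2 -1.21 ± 0.16, edgeR adjusted p = 0.0353). Neither Nfib nor Tcf4 was called without SOM replicate 2, and both were called in the 8 other fits that left out 1 library. With the 6 other libraries as 1 group, Nfib and Gap43 were called and Tcf4 was not (edgeR adjusted p = 0.106).

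Nxph1, Lhx6 and Cntnap3 were called against VIP cells and not against Nkx2.1 cells. Nxph1 (chromosome 6, 8948431 to 9249032, plus strand) encodes a glycoprotein that binds neurexins. Its level was 897, 625 and 750.4 CPM in SOM and 952, 1075 and 1598 CPM in Nkx2.1 libraries, and no VIP library had a read. SOM cells were at least 7669-fold higher than VIP cells, and the fold against the mean had an adjusted p of 0.000374 in edgeR. The gene Lhx6 (chromosome 2, 36081953 to 36105408, minus strand), the transcription factor that specifies MGE interneurons, stood at 608, 822 and 805 CPM in SOM, 888, 1693 and 1784 CPM in Nkx2.1 and 0.247, 0 and 0 CPM in VIP libraries (edgeR adjusted p = 0.00527 against the mean). Cntnap3 (chromosome 13, 64736182 to 64903955, minus strand), a contactin-associated adhesion protein, stood at 154, 237 and 219 CPM, 649.6, 789 and 285 CPM and 0.124, 0 and 0 CPM in the same order (edgeR adjusted p = 0.0124). Against Nkx2.1 cells alone their log2 folds were -0.67, -0.97 and -1.50 (edgeR adjusted p = 0.532, 0.642 and 0.435). With the 6 other libraries treated as 1 group, the log2 folds against that group were 0.33, 0.035 and -0.50 and none of the 3 was called.

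**Figure D2:**
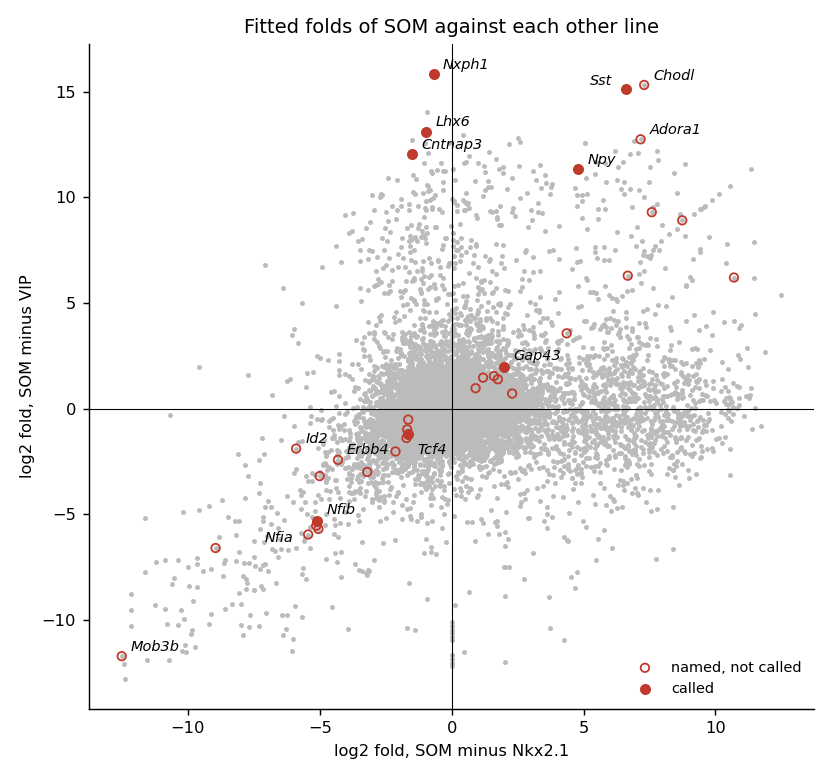
Fitted log2 folds of SOM against Nkx2.1 (horizontal axis) and against VIP (vertical axis) for the 10728 tested genes, grey, with called genes as filled and other named genes as open red circles. Nxph1, Lhx6 and Cntnap3 lie beside the vertical zero line, and Gap43 lies at the upper right and Nfib and Tcf4 at the lower left; the fitted folds of genes with 0 reads in a line, such as Mob3b, depend on the prior count and are no bounds, and both axes share the SOM libraries.

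Of the higher genes that were not called, the 12 with the lowest unadjusted p among those without overlap and with a SOM mean of at least 10 CPM are given next, as values without a call. The cytoskeletal genes were even among the SOM libraries. Stmn2, a microtubule regulator of growth cones, stood at 3899, 3292 and 3249.7 CPM in SOM, 1842, 1619.8 and 1118 CPM in Nkx2.1 and 984, 1197 and 1587 CPM in VIP libraries (log2 1.33 ± 0.21, edgeR adjusted p = 0.0648). Tubb5, a beta tubulin whose reads may be shared with close copies, stood at 2691 ± 169 CPM (mean ± SD, n = 3) against 1436 ± 203 and 1374 ± 188 CPM in Nkx2.1 and VIP cells (log2 0.94). The small nucleolar RNA host gene Snhg11 stood at 1637 ± 314 against 487 ± 139 and 624 ± 152 CPM, the transmembrane gene Tmem130 at 1339.7 ± 132 against 442 ± 108 and 459 ± 183 CPM, and Ndrg4 at 1622 ± 161 against 331 ± 173 and 987 ± 103 CPM. The edgeR adjusted p of these 4 genes was 0.102, 0.0822, 0.115 and 0.201.

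Chodl (chromosome 16, 78930948 to 78951733, plus strand), which encodes chondrolectin and marks the long-range somatostatin class, stood at 535, 658 and 402 CPM in SOM libraries, 10.2, 0 and 0 CPM in Nkx2.1 libraries and had 0 reads in VIP libraries. It was 157-fold higher by mean CPM than in Nkx2.1 cells, where all 89 reads were in replicate 1, and at least 5184-fold higher than in VIP cells (edgeR adjusted p = 0.172 against the mean). Lypd6, which encodes a modulator of nicotinic receptors, stood at 484, 354 and 257 CPM in SOM libraries and at no more than 5.72 CPM elsewhere, again in Nkx2.1 replicate 1. Adora1, the adenosine A1 receptor, stood at 116, 50.7 and 101 CPM in SOM, 1.26, 0.0853 and 0.501 CPM in Nkx2.1 and 0 in VIP libraries. The receptor phosphatase Ptprt stood at 153, 167 and 256 CPM in SOM libraries and at most 4.35 CPM in the others, and Olfm3, a secreted olfactomedin, at 604, 841 and 939 CPM against 11, 19.3 and 85.8 CPM in Nkx2.1 and 9.52, 81.1 and 110.4 CPM in VIP libraries. P2rx6, a purinergic channel subunit gene, and Tcerg1l were scarce, at 19.6, 10.3 and 32.1 CPM and 24.7, 10.9 and 29 CPM in SOM libraries, and at most 0.496 CPM in any other library. The edgeR adjusted p of Lypd6, Adora1, Ptprt, Olfm3, P2rx6 and Tcerg1l was 0.205, 0.102, 0.113, 0.16, 0.205 and 0.215.

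On the lower side the 13 genes next in order of unadjusted p, without overlap and with at least 10 CPM in both other lines, are likewise given as values without a call. Nfia, a second nuclear factor I gene, was next to the threshold (edgeR adjusted p = 0.051), at 5.45, 2.83 and 2.77 CPM in SOM against 79.8, 132 and 271 CPM in Nkx2.1 and 287, 164 and 239 CPM in VIP libraries. Nfix, of the same family, stood at 26.4, 1.34 and 0.691 CPM against 340.4, 344 and 265 and 688, 378 and 412 CPM (edgeR adjusted p = 0.224), with SOM replicate 1 above the other two. Id2, which blocks basic helix-loop-helix factors, stood at 4.71, 8.35 and 22.1 CPM in SOM, 909.8, 675 and 516 CPM in Nkx2.1 and 47.7, 27.5 and 55.4 CPM in VIP libraries (edgeR adjusted p = 0.0824), and was 59.7-fold below Nkx2.1 and 3.71-fold below VIP cells. Sox11, a transcription factor of immature neurons, stood at 259 ± 47.5 against 848 ± 131 and 677 ± 271 CPM, and the histone gene H3f3b, which has near-identical copies, at 505 ± 64 against 1630.1 ± 208 and 997 ± 206 CPM. For the long noncoding RNA Dlx6as1 the values were 32.8, 12.4 and 110.4 CPM in SOM, 644, 597 and 192 CPM in Nkx2.1 and 303, 375 and 564 CPM in VIP libraries. It overlaps Dlx6 on the other strand, and without a stated strand setting reads of the pair cannot be told apart.

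Erbb4 (chromosome 1, 68032186 to 69108059, minus strand), through which interneurons sense neuregulins, stood at 75.4, 85.9 and 142 CPM in SOM, 2039.8, 2627 and 1356 CPM in Nkx2.1 and 366, 216 and 1043 CPM in VIP libraries (log2 -3.37 ± 0.56, edgeR adjusted p = 0.0807). Dab1, the intracellular adaptor of reelin signalling, stood at 5.24, 8.5 and 19.4 CPM in SOM libraries against 876, 105 and 185 CPM in Nkx2.1 and 541, 351 and 650.2 CPM in VIP libraries (edgeR adjusted p = 0.0824). For Dab1 the SOM values are small beside all 6 others. For Erbb4 the highest SOM library, at 142 CPM, was nearer to the lowest of the others, VIP replicate 2 at 216 CPM. Mob3b was without a read in SOM cells and had 155, 21.1 and 49.8 CPM in Nkx2.1 and 18.9, 10.3 and 102 CPM in VIP libraries. That is at least 559-fold and 409.7-fold lower, against a floor of 3 reads over the SOM libraries (edgeR adjusted p = 0.224). Cadps2, a factor for exocytosis of dense-core vesicles, had at most 0.535 CPM in a SOM library, against 305, 74.8 and 182 CPM in Nkx2.1 and 7.54, 1.87 and 100.4 CPM in VIP libraries. Wls, which carries Wnt proteins to the cell surface, stood at 7.33 ± 7.6 against 236 ± 115 and 66.9 ± 26.6 CPM, Sh3bgrl at 188 ± 42.9 against 824 ± 234 and 765 ± 193 CPM, and Nrep at 1872 ± 309 against 5866 ± 703 and 2678 ± 539.7 CPM. Nrep was called against Nkx2.1 alone (edgeR adjusted p = 0.0154) and not against VIP (0.571), as were Erbb4 (0.0458 and 0.296) and Id2 (0.024 and 0.483); whether SOM differed more from one line than from the other was not tested.

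The list of neuropeptide and peptide processing genes also held Nxph1, whose product binds neurexins and is no neuropeptide. Of this list edgeR called Sst, Npy and Nxph1 only, and Nxph1 was not called against Nkx2.1 cells alone. Of its 33 genes 22 were tested, and edgeR called these 3 higher and 0 lower (DESeq2 4 and 3, limma-voom 3 and 1). At an unadjusted p under 0.05 there were 4 higher and 4 lower, against 6.76% and 1.85% of all tested genes. The median log2 was 0.71 against the mean (0.56 with genes without a read in a line set at their bound), but -0.48 against Nkx2.1 and -0.64 against VIP. Fitted folds were positive against both lines in 5 members and negative against both in 8. Penk, the enkephalin precursor, stood at 55.7, 73.5 and 36.4 CPM in SOM, 1.83, 0 and 0 CPM in Nkx2.1 and 155, 198 and 209.8 CPM in VIP libraries. Cort, the cortistatin gene, stood at 9.09, 9.84 and 5.18 CPM in SOM, 67.3, 88.2 and 9.18 CPM in Nkx2.1 and 0, 1.14 and 0 CPM in VIP libraries. The secretory granule genes Scg2 and Chga overlapped between lines, at 314 ± 170.4 and 289.6 ± 53.5 CPM in SOM cells, 87.2 ± 126 and 105 ± 68.7 CPM in Nkx2.1 cells and 249 ± 54.3 and 411 ± 84.3 CPM in VIP cells. Grp, the gastrin-releasing peptide gene, had 0 reads in SOM libraries, and Crh, the corticotropin-releasing hormone gene, had 0, 0 and 0.346 CPM there against 70.7, 367 and 319.8 CPM in VIP libraries.

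Nuclear factor I proteins bind DNA as dimers, E proteins pair with tissue-specific helix-loop-helix factors, and Id proteins hold E proteins off DNA. Of the 11 genes of these families 10 were tested, and edgeR called 0 higher and 2 lower (Nfib and Tcf4). In 5 of them, Nfia, Nfib, Nfix, Id2 and Tcf4, all SOM libraries lay below all others, where 0.792% of tested genes did. These 5 are also among the lower genes named above, and the list was chosen with earlier results of these data known. The count is thus description only. Fitted folds were negative against both lines in 8 of the 10, with a median log2 of -2.92 against the mean (0.12 for all tested genes). The exceptions were Nfic, at 28.7, 36.8 and 24.9 CPM in SOM, 2.29, 8.7 and 0 CPM in Nkx2.1 and 16.3, 45.8 and 33.3 CPM in VIP libraries, and Id1, which was scarce everywhere (at most 21.8 CPM). Id3 stood at 5.26 ± 4.37 against 64.2 ± 49 and 26.6 ± 21.3 CPM and Id4 at 3.48 ± 5.57 against 21.1 ± 17.8 and 30.6 ± 25.5 CPM, both with overlap. Tcf12 had no read in any library, but it lies on the minus strand of chromosome 9, where 93.1% of the 522 protein-coding genes had none, so its 0 is not read as absence. DESeq2 called 4 of the list lower and limma-voom 1, and without 1 library edgeR called 0 to 3, the 0 without SOM replicate 2.

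**Figure D3:**
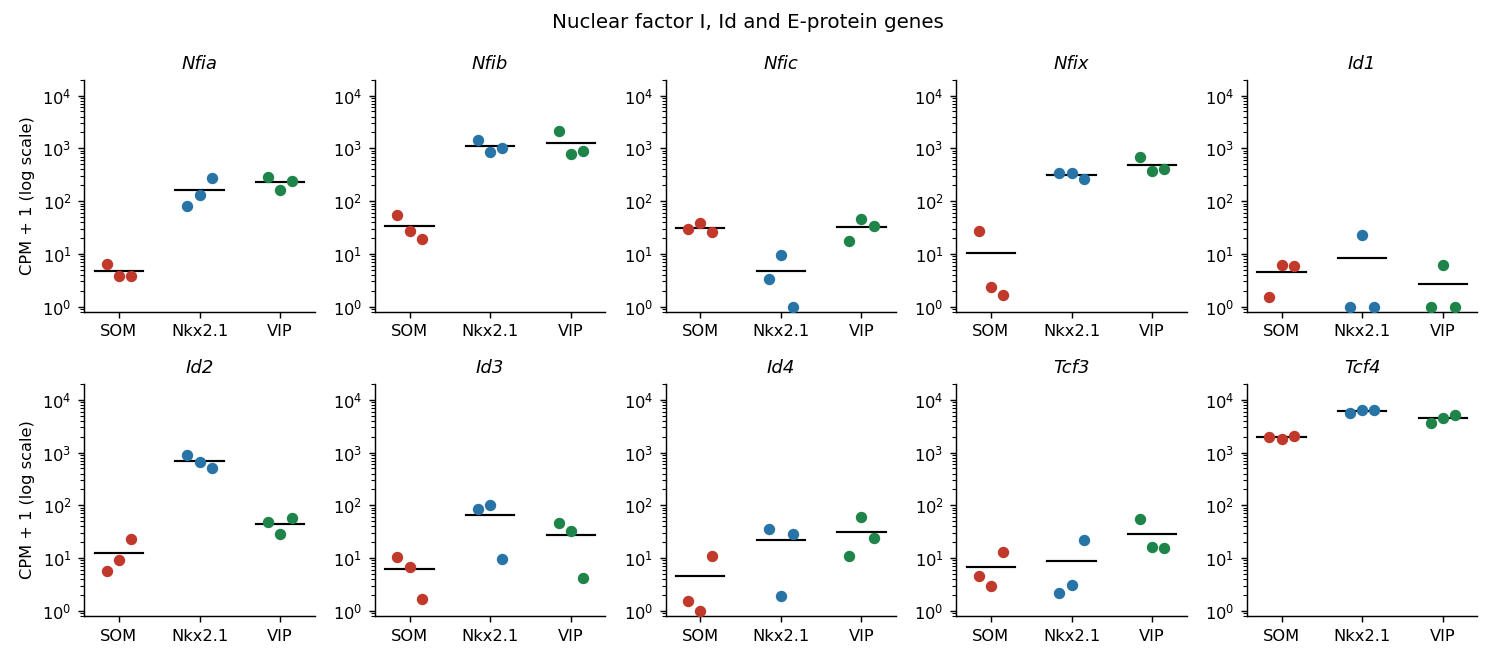
Levels of the 10 tested nuclear factor I, Id and E-protein genes by line, as CPM + 1 on a log axis, with 1 point per library and a line at the mean. All 3 SOM points lie below the 6 others for Nfia, Nfib, Nfix, Id2 and Tcf4, and not for Nfic, Id1, Id3, Id4 and Tcf3.

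Genes described for somatostatin interneurons were next read as a list of 30, of which 25 were tested. The driver of the line, Sst, is a member. edgeR called 3 higher (Sst, Npy and Lhx6) and 0 lower, 13 of the 25 lay above all other libraries (3.45% of all tested genes did) and 1 below, and the median log2 fold was 3.71 against the mean, 2.73 against Nkx2.1 and 2.66 against VIP (0.12, 0.0078 and -0.0037 for all tested genes with genes without a read in a line set at their bound). DESeq2 called 8 higher and 1 lower and limma-voom 11 and 1, and with 1 library left out edgeR called 1 to 4. Their summed level was 14850.3 to 19119.5 CPM in SOM, 3291 to 3963 CPM in Nkx2.1 and 1512 to 2084 CPM in VIP libraries. The filter on low counts let in a member nearly silent in the other lines only if all 3 SOM libraries had reads. The medians and the 13 members above all other libraries can thus follow in part from the filter, and are description only. The same limit holds for such counts in the lists below.

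Reln, the secreted matrix protein reelin, was the most abundant member after Npy in the SOM libraries, at 2808, 2088 and 2467 CPM. It stood at 1032, 5.37 and 0.668 CPM in Nkx2.1 replicates 1, 2 and 3 and 0.494, 2.29 and 37.7 CPM in VIP libraries, with Nkx2.1 replicate 1 far above the 5 other libraries outside the SOM line (log2 5.16 ± 1.69, edgeR adjusted p = 0.394). Grin3a, an NMDA receptor subunit, stood at 1577, 1289 and 1322 CPM in SOM, 19.3, 0.426 and 33.3 CPM in Nkx2.1 and 0, 142 and 90.4 CPM in VIP libraries (edgeR adjusted p = 0.286). The SOM libraries differ little for both genes, and the others scatter over orders of magnitude. Satb1, a chromatin organizer needed for somatostatin cell maturation, stood at 455, 350.2 and 619.5 CPM in SOM, 107, 0.0853 and 15.7 CPM in Nkx2.1 and 102, 123 and 1.32 CPM in VIP libraries. Crhbp, which binds corticotropin-releasing hormone, stood at 169.9, 269.9 and 254 CPM in SOM libraries and at most 5.38 CPM in the others. Nos1, nitric oxide synthase, stood at 226, 757 and 403 CPM in SOM libraries and at most 32.4 CPM elsewhere. None of these 3 was called (edgeR adjusted p = 0.567, 0.261 and 0.355).

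Of the 25 tested list members 13 lay above all other libraries, and fitted folds were positive against both lines in 17. Some of the members that did not lie above all other libraries are given next. Elfn1, a postsynaptic adhesion protein that recruits presynaptic glutamate receptors, stood at 237 ± 27.2 CPM in SOM and 311 ± 209.7 CPM in VIP cells against 1.07 ± 1.85 CPM in Nkx2.1 cells. Sox6 stood at 662 ± 273 and 332 ± 198 CPM in SOM and Nkx2.1 cells against 15.3 ± 26.5 CPM in VIP cells, and the calcium-binding gene Calb1 at 249 ± 101, 382 ± 293 and 7.01 ± 12.1 CPM. Pnoc, the precursor of nociceptin, ran the other way: it stood at 4.17, 0 and 0 CPM in SOM libraries against 128, 142 and 118 CPM in Nkx2.1 and 91.3, 71.4 and 139 CPM in VIP libraries (log2 -6.33 ± 1.90, edgeR adjusted p = 0.341).

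Among genes that divide somatostatin cells into subtypes, Chodl was high in all 3 SOM libraries, and the levels of some others, chosen after their values were seen, ranged widely between these libraries of 150 cells each. Tac1, the substance P precursor, stood at 87.5, 0.149 and 20.4 CPM in SOM replicates 1, 2 and 3, Pdyn, the dynorphin precursor, at 0, 24.2 and 0 CPM, and Tacr1, the substance P receptor, at 1.6, 38 and 123 CPM. Calb2, which encodes calretinin, stood at 182, 38.5 and 9.91 CPM, Mme, a membrane peptidase, at 52.9, 28.5 and 0.576 CPM, and the neurotensin gene Nts at 13.4, 0 and 0 CPM. No SOM library led in all of them: replicate 1 was highest for Tac1, Calb2, Mme and Nts, replicate 2 for Pdyn and Nos1 and replicate 3 for Tacr1. Of this list of 20, 9 were tested and edgeR called 0 in either direction, and 1 higher without Nkx2.1 replicate 1. At an unadjusted p under 0.05 there were 5 higher and 1 lower (6.76% and 1.85% of all tested genes), and 4 lay above all other libraries (3.45%). DESeq2 called 3 higher and 1 lower and limma-voom 2 higher. The median log2 fold was 4.78 against the mean, or 3.32 with genes without a read in a line set at their bound. The summed level of the list was 996 to 1615 CPM in SOM, 124 to 264 CPM in Nkx2.1 and 946 to 1486 CPM in VIP libraries. By this sum SOM and VIP libraries overlapped. The filter on low counts let in a member silent in the other lines only if it had reads in all 3 SOM libraries. The median and the 4 members above all other libraries can thus follow in part from the filter, and they are given as description only. The genes Crhr2 and Edn1 of this list had no read in any of the 9 libraries, nor had Unc13c of the list above, which lies on the same strand as Tcf12.

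**Figure D4:**
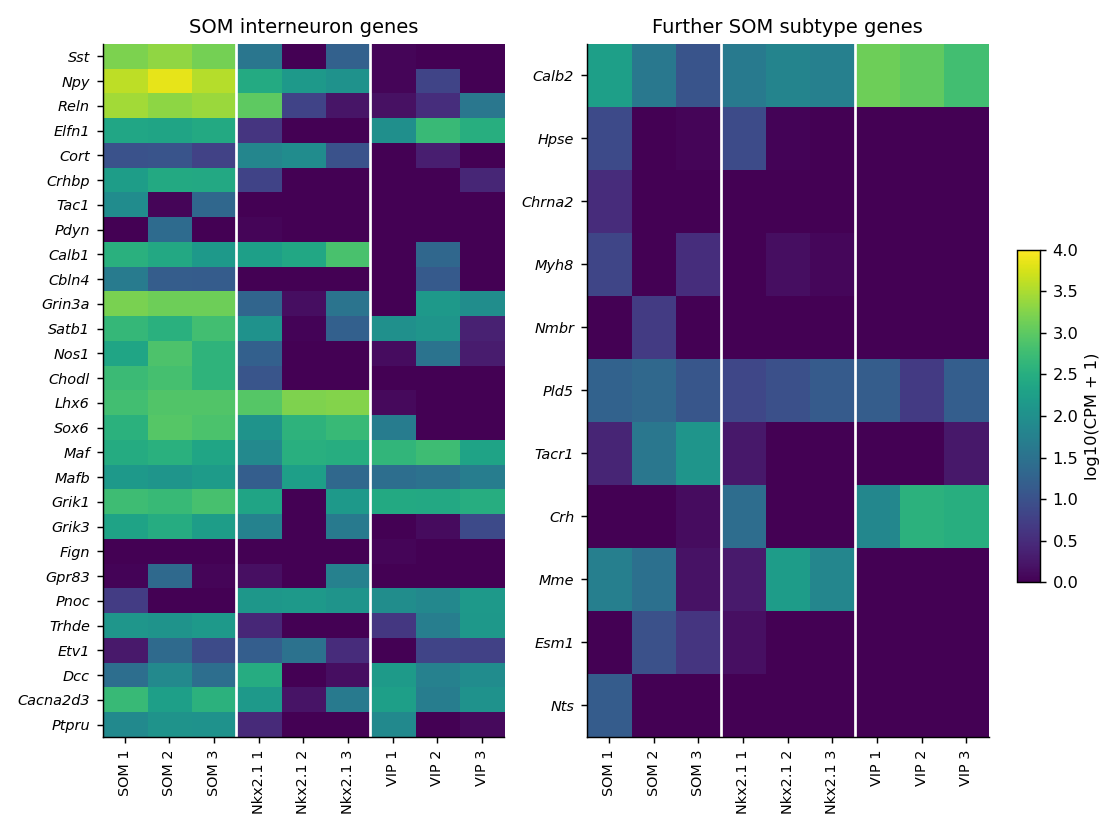
Levels of the reported somatostatin interneuron genes (left) and further subtype genes (right) with at least 1 read, as log10(CPM + 1), in each of the 9 libraries, with white lines between the lines of mice. Sst, Npy, Reln, Grin3a and Chodl are high in all 3 SOM libraries, Lhx6 is high in SOM and Nkx2.1 libraries, and Tac1, Pdyn, Tacr1, Calb2 and Mme differ among SOM libraries.

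Genes that mark the origin or type of the other lines were read in the same way. Of 13 transcription factor genes of MGE-derived cells 11 were tested, and edgeR called 1 higher (Lhx6) and 0 lower (0.0559% and 0.0186% of all tested genes). The median log2 was 0.25 against Nkx2.1 and 1.11 against VIP. At an unadjusted p under 0.05 there were 3 higher and 2 lower (6.76% and 1.85% of all tested genes). All SOM libraries lay above the others in 2 and below in 0 (3.45% and 0.792%). The summed level of the list was 3843 to 5091 CPM in SOM, 8748 to 14911 CPM in Nkx2.1 and 1848 to 2935 CPM in VIP libraries. Mef2c, an activity-regulated factor, lay between the lines, at 1393 ± 240.2 CPM in SOM, 7751 ± 2574 CPM in Nkx2.1 and 643 ± 143 CPM in VIP cells, and fell against Nkx2.1 alone (log2 -2.48 ± 0.27, edgeR adjusted p = 0.0144). Nkx2-1 itself had 1 read in the SOM libraries and 23 in the Nkx2.1 libraries.

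VIP and CGE interneuron genes in SOM cells often lay between Nkx2.1 and VIP cells. Of 22, 16 were tested, and edgeR called 0 in either direction (DESeq2 2 higher and 2 lower, limma-voom 1 and 0), though 3 higher without Nkx2.1 replicate 1. At an unadjusted p under 0.05 there were 3 higher and 4 lower, against 6.76% and 1.85% of all tested genes. None had all SOM libraries above or below the others, against 3.45% and 0.792% of all tested genes. The median log2 fold was 2.90 against Nkx2.1 (1.46 with genes without a read in a line set at their bound) and -2.88 against VIP. Nr2f2, a nuclear receptor of CGE cells, stood at 219, 97.8 and 193 CPM in SOM and 339, 102 and 110.3 CPM in VIP libraries against 1.03, 0 and 0 CPM in Nkx2.1 libraries. Npas1 stood at 74.5 ± 40.2 CPM between 1.03 ± 1.09 CPM in Nkx2.1 and 547 ± 55.4 CPM in VIP cells, the synaptic vesicle gene Synpr at 810.1 ± 396 CPM between 6.94 ± 12 and 2305 ± 286 CPM, and the growth factor gene Igf1 at 191 ± 104 CPM between 0.991 ± 1.72 and 669 ± 359 CPM. Vip (0, 0 and 1.27 CPM in SOM libraries) and Prox1 (0, 0 and 0.691 CPM) were near 0 in SOM cells, against 639 ± 202 and 492 ± 177 CPM in VIP cells.

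Chandelier and parvalbumin cell genes were not called either, with 0 of the 17 tested of 23 (DESeq2 1 higher and 3 lower, limma-voom 1 and 0). At an unadjusted p under 0.05 there were 1 higher and 4 lower, against 6.76% and 1.85% of all tested genes. In 1 member all SOM libraries lay above the others and in 2 below, against 3.45% and 0.792% of all tested genes. Without VIP replicate 2, and likewise without VIP replicate 3, edgeR called 1 lower. Hapln1, a link protein of perineuronal nets, stood at 25.2, 48.3 and 34.2 CPM in SOM and 17.6, 38.5 and 64.6 CPM in VIP libraries against 463, 639 and 568 CPM in Nkx2.1 libraries. The sodium channel gene Scn1a stood at 95.6 ± 84.9 and 85.4 ± 79.2 CPM in SOM and VIP cells against 702 ± 109 CPM in Nkx2.1 cells. Fgf13, an intracellular partner of sodium channels, was one of 2 members with all SOM libraries below the rest, at 199.9, 158 and 237 CPM against 784, 674 and 622 CPM in Nkx2.1 and 265, 611 and 293 CPM in VIP libraries (edgeR adjusted p = 0.303); the other was Erbb4. Pvalb, Cck, Htr3a and Sncg had no read in any library. Cck and Htr3a also lie on the minus strand of chromosome 9, so their 0 is not read as absence.

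Growth cone and immature neuron genes had a median fold slightly above that of all tested genes, and Gap43 was the 1 gene edgeR called among the 32 tested of 34 (1 higher and 0 lower; DESeq2 3 and 2, limma-voom 7 and 0). At an unadjusted p under 0.05 there were 13 higher and 2 lower, against 6.76% and 1.85% of all tested genes, and edgeR called 0 to 2 with 1 library left out, the 0 without SOM replicate 1 or 2. In 7, against 3.45% of all tested genes, all SOM libraries were above the others: Gap43, Stmn2, Tubb3, Tubb2a, Mapt, Pfn2 and Nnat. The median log2 fold was 0.40 against the mean (0.12 for all tested genes), 0.39 against Nkx2.1 and 0.41 against VIP. Tubb3, a neuronal tubulin, stood at 1729, 2042 and 2208 CPM in SOM, 829, 922 and 515 CPM in Nkx2.1 and 1345, 1276 and 825 CPM in VIP libraries (edgeR adjusted p = 0.224). The actin regulator Pfn2 stood at 1158 ± 205 against 471 ± 115 and 539 ± 165 CPM, and Nnat at 2978 ± 301 against 642 ± 710.0 and 1347 ± 17.1 CPM. Other abundant members overlapped, such as Map1b at 4688 ± 186, 2643 ± 312 and 4895 ± 536 CPM and Dcx at 1869 ± 401, 3402 ± 382 and 692 ± 104 CPM. Sox11 and Gpm6b lay below, the latter at 373 ± 54.2 against 971 ± 421 and 833 ± 118 CPM. The summed level of the list was 37825 to 40190.4 CPM in SOM, 25204 to 25646 CPM in Nkx2.1 and 26033 to 28407 CPM in VIP libraries. Upper quartile scaling moved the median of all genes by 0.17 on the log2 scale, and the small folds of this list are to be read against that shift.

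Glutamate receptor genes and their auxiliary subunits held several genes with high SOM levels. edgeR called 0 of the 30 tested of 33 (DESeq2 5 higher and 1 lower, limma-voom 6 and 0), and 1 higher without VIP replicate 3. At an unadjusted p under 0.05 there were 9 higher and 1 lower, against 6.76% and 1.85% of all tested genes. In 6 of them, Grin3a, Grik1, Grik3, Cacng3 and Neto1 included, all SOM libraries were above the others, against 3.45% of all tested genes. Grin3a, Grik1 and Grik3 are also members of the list of somatostatin interneuron genes above, so the counts of these lists overlap. Neto1, an auxiliary subunit of kainate receptors, stood at 623, 599 and 806 CPM in SOM, 110.2, 0.682 and 45.2 CPM in Nkx2.1 and 0, 0.937 and 10.6 CPM in VIP libraries (log2 5.57 ± 1.38, edgeR adjusted p = 0.241). The kainate receptor subunit genes Grik1 and Grik3 stood at 564, 491 and 676 CPM and 208, 299.6 and 169 CPM in SOM libraries, against 218, 0 and 145 CPM and 58.9, 0 and 43.1 CPM in Nkx2.1 libraries, and the highest VIP libraries reached 304 and 6.94 CPM. Cacng3, an AMPA receptor auxiliary subunit, stood at 560.3 ± 64.3 against 263 ± 74 and 11.2 ± 11.6 CPM. By contrast the AMPA receptor gene Gria1 was lowest in VIP cells only, at 1663 ± 369.9, 2430.4 ± 674 and 99.7 ± 116 CPM in SOM, Nkx2.1 and VIP cells.

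In the remaining lists of neuronal genes few members were called. For 43 tested synaptic organizers, 20 GABA receptor and transport genes, 36 sodium, potassium and pacemaker channel genes, 16 calcium channel genes, 43 axon guidance genes, 24 cadherins, 21 matrix genes, 30 immunoglobulin superfamily genes and 16 immediate early genes, edgeR called 2 in all (Nxph1 and Cntnap3). At an unadjusted p under 0.05 there were 0 to 7 higher and 0 to 4 lower genes per list, against 6.76% and 1.85% of all tested genes. The higher ones were 7 of 30 immunoglobulin superfamily genes, 5 of 21 matrix genes, 5 of 24 cadherins and 3 of 16 calcium channel genes. They were also 6 of 43 synaptic organizers, 5 of 43 axon guidance genes and 4 of 36 sodium, potassium and pacemaker channel genes. Of the immediate early genes 2 of 16 were higher, and of the GABA receptor and transport genes 0 of 20. All SOM libraries lay above the others in 3 matrix genes, 3 cadherins, 3 immunoglobulin superfamily genes and 3 synaptic organizers, against 3.45% of all tested genes. The same held for 2 axon guidance genes, 1 GABA list gene and 1 sodium, potassium or pacemaker channel gene. It held for 0 calcium channel and 0 immediate early genes. DESeq2 called 0 to 4 higher and 0 to 3 lower per list and limma-voom 0 to 3 and 0. With 1 library left out, edgeR called 1 matrix gene higher (without SOM replicate 1) and 1 lower (without Nkx2.1 replicate 1), and 1 to 2 synaptic organizers and 0 to 2 immunoglobulin superfamily genes higher. Members with all SOM libraries above the rest included the cadherin gene Cdh9, at 81.9, 118 and 166 CPM in SOM, 22.8, 0.597 and 71.5 CPM in Nkx2.1 and 0, 0 and 0.0826 CPM in VIP libraries, and Cdh18, at 44.4, 14.9 and 41.9 CPM in SOM libraries and at most 0.865 CPM elsewhere. The adhesion gene Cntn1 stood at 1328 ± 280.4 against 430.1 ± 484 and 240.3 ± 64.7 CPM, and the guidance ligand Sema3e at 57.7 ± 35 against 0.496 ± 0.859 and 4.47 ± 4.63 CPM. Below all others were the netrin receptor gene Unc5c, at 0.962, 0.597 and 17.6 CPM in SOM, 195, 127 and 554 CPM in Nkx2.1 and 57.2, 38.5 and 79.3 CPM in VIP libraries, and Gabrg3, a GABA receptor subunit gene, at 56.2, 1.94 and 19.9, 1075, 698 and 484 and 76.8, 64.6 and 75.2 CPM. The phosphatase gene Ptprs stood at 411 ± 58.8 against 681 ± 169 and 1045 ± 83 CPM. None of these 7 was called, and they were chosen after their values were seen.

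In 370 tested genes all SOM libraries were above the 6 others and in 85 below. The counts were 505 and 277 for VIP libraries, which also had more genes above than below, and 355 and 639 for Nkx2.1 libraries. At 1 depth of 6484488 reads the SOM libraries held 10765, 11081 and 11357 genes with a read, the Nkx2.1 libraries 10250.4, 7853 and 9178 and the VIP libraries 9526, 10769 and 10641, so that 1 VIP library reached the lower end of the SOM range. SOM libraries held 1365 more genes than the mean of the 6 others (exact permutation test, two-sided, p = 0.0714 over 84 splits). The part of this difference in the excess of higher genes was not tested. At least 10 reads in each SOM library and 0 in all others were found for 13 genes, led by Mybph, at 49.7, 10.6 and 41.2 CPM, with the sulfotransferase gene Ndst4 at 7.06, 33.4 and 3.46 CPM, Myo3b at 17.2, 8.2 and 11.2 CPM and the tetraspanin gene Cd151 at 4.81, 8.8 and 16.2 CPM among them. The reverse, 0 reads in SOM and at least 10 in every other library, was found for Mob3b alone. Counted in the same way, 10 genes were found in VIP libraries only and 0 in Nkx2.1 libraries only. The reverse was found for 8 genes in the VIP and 13 in the Nkx2.1 line.

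**Figure D5:**
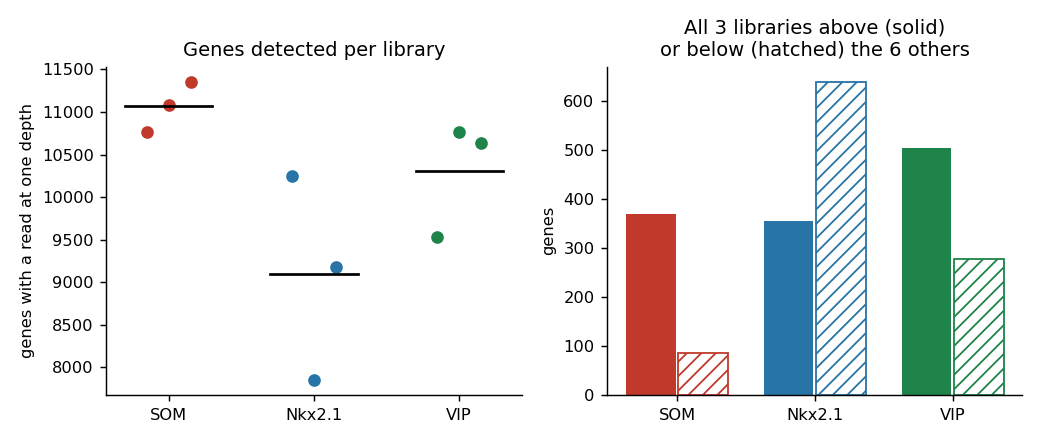
Genes with a read at 1 depth of 6484488 reads per library, with a line at the mean of each line of mice (left; the axis does not start at 0), and tested genes for which the 3 libraries of a line all lie above or all below the 6 others (right). The SOM line has 370 genes above and 85 below, and the SOM libraries hold 10765 to 11357 genes with a read.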

How the data were processed

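Whole-number read counts per gene symbol were used as the authors deposited them, 1 table per library. The submitters' processing notes name TopHat2 2.0.9, DESeq2 and the build mm10, and how reads were assigned to genes and strands is not stated there or in the labels. The 5 summary rows, 83.6% to 85.2% of each table's total, were left out. Counts were fitted with edgeR 4.0.16 (R 4.3.3): TMM scaling, filterByExpr with a minimum count of 10, and 1 quasi-likelihood fit of 3 lines over all 9 libraries (6 residual degrees of freedom), with a weight of 0.5 for each other line, an adjusted p (Benjamini-Hochberg over 10728 genes) under 0.05 for a call. The common biological coefficient of variation came to 1.4. A fold over a line without a read was computed against 3 reads over the line, and 95% intervals for ratios of pooled reads cover counting error only. Named were, per direction, up to 15 genes without overlap and with a mean of at least 10 CPM, called genes first, then by unadjusted p; 3 called genes that overlap were named besides, as were genes of 26 lists, some of whose members are counted but not reported here. The comparison, the lists and the rule were chosen with earlier results of these data known. Alternatives used DESeq2 1.42.0, limma 3.58.1 (voom), other scalings and filters, a sample number block and single libraries left out. Positions are from the GRCm38 annotation.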

Additional observations from a re-analysis of the deposited data

How the results depend on the processing

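The 6 higher calls against the mean became 10 with upper quartile scaling, 12 without a filter, 257 with DESeq2, 159 with limma-voom, 3 with the replicate block and 1 with the 6 other libraries as 1 group. They ranged from 2 (without SOM replicate 2) to 22 (without Nkx2.1 replicate 1) with 1 library left out. The 2 lower calls became 6 without a filter, 118 with DESeq2, 5 with limma-voom and 1 with 2 groups, and 0 to 5 with 1 library left out. The 1 gene higher in each comparison became 43 with DESeq2, 22 with limma-voom and 0 with the replicate block, and 0 to 2 with 1 library left out. The 2 genes lower in each became 51 with DESeq2 and 1 with upper quartile scaling, limma-voom or the replicate block, and 0 to 3 with 1 library left out. With a library fewer to clear, separated genes numbered 495 to 665 above and 128 to 193 below. Cntnap3 turned to a log2 of -0.50 with 2 groups. Apart from these settings' own construction, the cause was not tested.

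All 8 calls were kept with DESeq2 size factors, upper quartile scaling, no filter, a stricter filter, DESeq2, robust dispersion and without Rn45s, Malat1 and mitochondrial genes. limma-voom kept 5 (not Cntnap3, Nfib and Npy), the block 5 (not Cntnap3, Npy and Sst) the fit with 2 groups 2 (Gap43 and Nfib) and the fit without SOM replicate 2 also 2 (Nxph1 and Lhx6). Same-numbered samples had correlations of deviations of -0.033 to 0.064, so the numbers were not taken to pair samples. The gene detection difference was 995 to 1578 genes with 1 library left out. A call missed does not show equal levels, and whether depth limits the calls was not tested.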

Other observations

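Genes not yet described also separated the SOM libraries, and those below were chosen after their values were seen, from the 20 with the largest ratio of mean CPM to the nearer of the other lines. Of the 370 genes above all other libraries, 137 had a SOM mean of at least 100 CPM, and 23 of these were at least 10-fold above the higher of the other lines, 71 were 2-fold to 10-fold above it and 43 less. Sstr1, a somatostatin receptor gene, stood at 271, 263 and 393 CPM in SOM replicates 1, 2 and 3, 5.49, 0.0853 and 25.7 CPM in Nkx2.1 and 0, 31.5 and 0.0826 CPM in VIP libraries. Vcl, which encodes vinculin of focal adhesions, stood at 334, 42.2 and 239.9 CPM in SOM libraries and at most 7.76 CPM elsewhere. Col19a1, a collagen gene, stood at 240.0, 371 and 667 CPM in SOM libraries and reached 68.4 CPM in Nkx2.1 and 27.7 CPM in VIP libraries. Man1a and Mgat4c, both enzymes of N-glycan processing, stood at 274 ± 75.8 and 243 ± 211 CPM (mean ± SD, n = 3) in SOM cells, 1.98 ± 3.43 and 5.75 ± 9.88 CPM in Nkx2.1 cells and 16.3 ± 20.2 and 15 ± 26 CPM in VIP cells. The amino acid transporter gene Slc7a3 stood at 135, 268 and 84.5 CPM in SOM libraries and at most 12.7 CPM elsewhere, and the channel gene Trpm3 at 81.4, 132 and 107 CPM in SOM libraries and at most 18.3 CPM elsewhere. None of these genes was called by edgeR.

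Of the 85 genes below all other libraries, 75 had at least 20 CPM in both other lines, and 10 of these were at least 10-fold lower than the lower of them. Besides genes named above they were Crim1, at 0.214, 0 and 0.23 CPM in SOM, 0.343, 155 and 38.9 CPM in Nkx2.1 and 0.618, 15.1 and 61.1 CPM in VIP libraries, and the zinc finger genes Zfp763, at 2.43 ± 3.83, 284 ± 248 and 62.7 ± 37.7 CPM (mean ± SD, n = 3), and Patz1, at 2.69 ± 0.965, 57.9 ± 51.3 and 28.5 ± 11.4 CPM. The Crim1 value in Nkx2.1 replicate 1 rests on 3 reads, so its distance from the SOM libraries is within counting error. Zfp536, a repressor of neuronal differentiation, stood at 109 ± 87.1 CPM in SOM, 729 ± 502 CPM in Nkx2.1 and 476 ± 271 CPM in VIP cells.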
